A study of Mus musculus with 12 samples.

Results

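Bone morphogenetic proteins (BMPs) are secreted ligands that bind pairs of serine/threonine kinase receptors. The receptors phosphorylate Smad1, Smad5 and Smad9, which enter the nucleus with Smad4 and switch on target genes. The Id genes are the classical targets, and they encode helix-loop-helix proteins without a DNA-binding domain that sequester the E proteins and so hold back differentiation factors. In the cerebellum BMPs oppose the mitogenic effect of Sonic hedgehog (Shh) on granule neuron progenitors (GNPs), the cells from which Shh medulloblastoma (MB) arises. Described here are 10 genes of this pathway out of 19057 annotated genes on the arrays: *Id1*, *Id2*, *Id3* and *Id4*, the ligands *Bmp2*, *Bmp4* and *Bmp7*, the receptor *Bmpr1a*, the transducer *Smad1* and the inhibitory *Smad7*. They were chosen by name, and each is represented by the annotated probe with the highest mean over 12 arrays.

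The arrays, Illumina MouseWG-6 v2.0 BeadChips, measured total RNA of 3 groups with 4 samples each. *Ptch+/-* MBs came from symptomatic mice with 1 mutant copy of *Ptch*, the Shh receptor and brake of the pathway, and the records give their strain background as C57Bl/6. *NdpKO;Ptch+/-* MBs came from symptomatic mice with the same *Ptch* mutation that also lacked Norrin, a secreted Frizzled4 ligand encoded by *Ndp* on the X chromosome, through a lacZ cassette in the locus. These mice are males (*Ndp-/y*) on a mixed background, while controls of the study include both sexes, so genotype cannot be told apart from strain background or sex as the records give them, although the methods state that animals of the same breeding cohort were compared. The labels give no age for these MBs. Wild-type GNPs of C57Bl/6 background were purified at postnatal day 6 on Percoll gradients with pre-plating. Both tumor groups carry the *Ptch* mutation, and a group with the *Ndp* mutation alone was not analysed here. MBs differ from GNPs in tumor state, *Ptch* genotype and purification at once, and perhaps in age, so these cannot be told apart. *NdpKO;Ptch+/-* MBs differ from GNPs in *Ndp* and strain background too. Falls and rises below are differences between groups of samples, not changes followed over time. A figure legend of the paper gives 4 animals per group for a GNP array comparison, without naming the samples used here. The tumor samples have separate codes without a statement that each is a different mouse. For MBs the p-values therefore measure how these samples vary. The 4 arrays a group limit the precision.

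The deposited values are normalized log2 signals with a floor near 4.1, and signals below 4.5 were treated as background, here called the background limit. The *Ndp* probe lay under this limit on all 12 arrays (4.12 to 4.21) and could not check the knockout. Of 10 GNP markers 8 reached the limit on at least 1 array of each group (*Pax6* on 1 *Ptch+/-* array, with a mean of 4.39 there), while *Atoh1* and *Boc*, which define GNPs too, lay under it in all 3 groups. The paper shows *Atoh1* in MBs of both genotypes by in situ hybridization, so its absence cannot be read from this probe. Every difference below was tested in one limma model over the 12 arrays, and p-values were adjusted over all probes (Benjamini-Hochberg). A gene passed the test at an adjusted p under 0.05.

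The ligand *Bmp4*, by at least 13.0-fold, and the target gene *Id1* were lower in MBs of both genotypes than in GNPs. *Id4* was lower in *Ptch+/-* MBs, and its difference in *NdpKO;Ptch+/-* MBs did not pass. *Id2*, *Id3*, *Bmpr1a* and *Smad1* were measured and passed in no comparison, while *Bmp2*, *Bmp7* and *Smad7* were at or near background. The mean of *Id1* was lowest in *NdpKO;Ptch+/-* MBs, without a call between the tumor genotypes. In *Ptch+/-* MBs against GNPs 3 of the 10 genes passed, all lower, where 21.2% of all genes passed, 10.3% higher and 10.9% lower. In *NdpKO;Ptch+/-* MBs against GNPs *Id1* and *Bmp4* passed, both lower, where 15.7% of all genes passed, 7.69% higher and 7.98% lower. The same 4 GNP samples serve both comparisons, so these comparisons are not independent. Between the tumor genotypes limma passed 0 of the 10 genes, with *Id1* alone at an unadjusted p under 0.05, where 2.07% of all genes passed, 0.808% higher and 1.26% lower. Of the 10 genes 7 reached the background limit on at least 4 arrays. Among the 8922 genes that did so, 38.4%, 28.9% and 4.23% passed in these 3 comparisons. With shares of this size in both comparisons with GNPs, 3 and 2 genes out of 10 are near the background share.

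**Figure D1:**
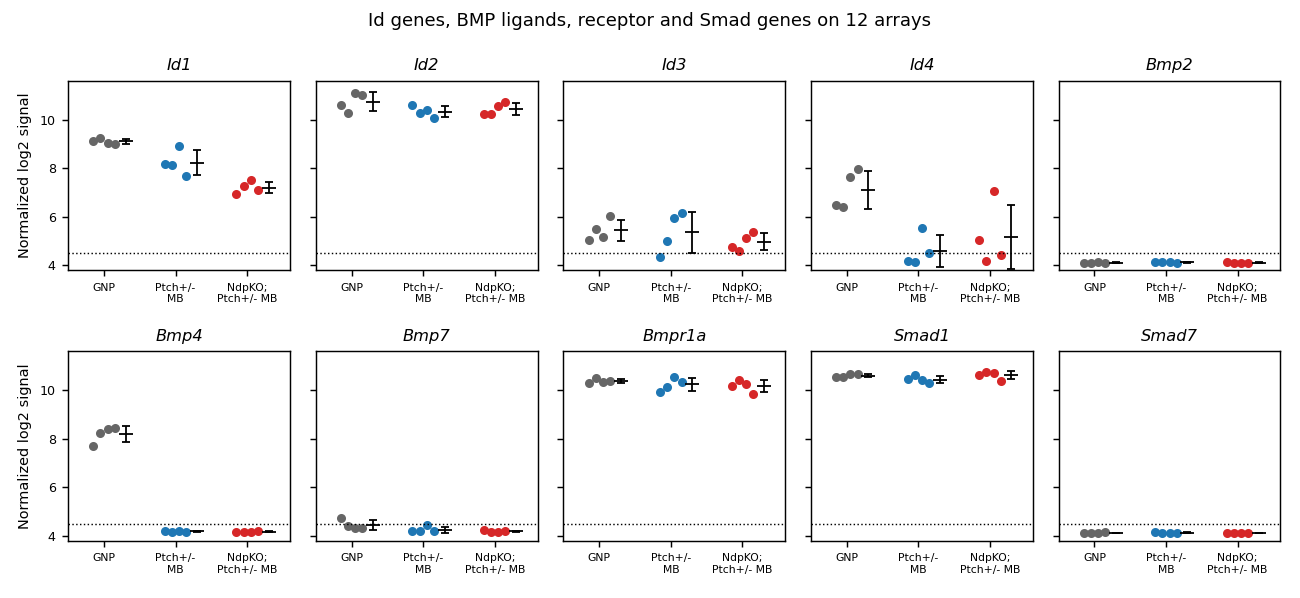
Normalized log2 signal (vertical axis) of the 10 genes in GNPs, Ptch+/- MBs and NdpKO;Ptch+/- MBs, with points for single arrays, the mean ± SD (n = 4) beside them and the 4.5 background limit dotted. *Bmp4* lies between 7.71 and 8.44 in GNPs and under the limit in all 8 MBs, and *Id1* steps down from GNPs to Ptch+/- MBs to NdpKO;Ptch+/- MBs.

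RefSeq promoters were matched for 6 of the 10 genes, and not for *Id1*, *Bmp2*, *Bmp7* and *Smad7*. Shown are the 250 bases before the start of *Bmp4* and *Id4*, which were lower in MBs than in GNPs for at least 1 genotype, and of *Id2* and *Id3*, the family members for which no difference passed, in build GRCm38.p6, 5′ to 3′ on the strand of the gene. Capitals mark GGCGCC, a GC-rich element bound by BMP Smads that reads the same on both strands.
Id2 (chr12:25096093-25096342, minus strand): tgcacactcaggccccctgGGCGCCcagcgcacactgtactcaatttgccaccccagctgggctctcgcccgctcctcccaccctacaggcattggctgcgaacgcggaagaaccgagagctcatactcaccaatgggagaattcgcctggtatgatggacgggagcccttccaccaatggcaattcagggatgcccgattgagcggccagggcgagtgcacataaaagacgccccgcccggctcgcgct
Id3 (chr4:136143572-136143821, plus strand): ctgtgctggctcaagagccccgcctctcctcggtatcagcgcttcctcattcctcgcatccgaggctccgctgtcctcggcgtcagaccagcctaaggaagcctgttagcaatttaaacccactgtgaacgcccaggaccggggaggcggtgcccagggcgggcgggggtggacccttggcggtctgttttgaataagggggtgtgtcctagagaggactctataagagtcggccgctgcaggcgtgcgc
Id4 (chr13:48260866-48261115, plus strand): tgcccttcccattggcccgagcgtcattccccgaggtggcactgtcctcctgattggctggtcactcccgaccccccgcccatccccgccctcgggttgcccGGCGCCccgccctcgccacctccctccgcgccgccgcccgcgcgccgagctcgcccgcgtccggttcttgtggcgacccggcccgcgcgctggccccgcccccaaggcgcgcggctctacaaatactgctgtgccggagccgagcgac
Bmp4 (chr14:46390670-46390919, minus strand): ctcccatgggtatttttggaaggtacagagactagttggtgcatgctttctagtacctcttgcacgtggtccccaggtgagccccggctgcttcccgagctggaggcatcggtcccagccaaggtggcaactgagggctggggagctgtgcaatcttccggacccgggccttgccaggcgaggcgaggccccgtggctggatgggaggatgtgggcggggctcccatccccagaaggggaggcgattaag
One GGCGCC lay in the *Id2* window and 1 in that of *Id4*, and the *Id3* and *Bmp4* windows held 0, while 9.59% of the 32851 RefSeq windows of this length held it. GGCGCC was present both in an Id gene that fell in *Ptch+/-* MBs and in one that did not pass. Of the matched windows not shown, that of *Bmpr1a* held 1 and that of *Smad1* held 0, and neither gene passed. Other motifs were counted on both strands. GGAGCC occurred 1 time in each of the windows shown and in 26.0% of the RefSeq windows. GTCT occurred 1 time in the *Id2* window, 2 in *Id3*, 0 in *Id4* and 1 in *Bmp4*, where 82.9% of the RefSeq windows held it. A match is a run of letters in this window and was not tested as a site.

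*Id1*, the best known target of BMP Smads, had log2 signals of 9.13, 9.27, 9.04 and 8.99 in GNPs (replicates 1 to 4), 8.18, 8.15, 8.92 and 7.66 in *Ptch+/-* MBs, and 6.94, 7.27, 7.50 and 7.12 in *NdpKO;Ptch+/-* MBs. No group overlapped another. Of all genes, 28.8% did not overlap between *Ptch+/-* MBs and GNPs, 25.0% between *NdpKO;Ptch+/-* MBs and GNPs and 9.40% between the tumor genotypes. The mean was 9.11 ± 0.12 (SD, n = 4 arrays) in GNPs, 8.23 ± 0.52 in *Ptch+/-* MBs and 7.21 ± 0.24 in *NdpKO;Ptch+/-* MBs. In limma *Id1* fell by 1.90 on the log2 scale from GNPs to *NdpKO;Ptch+/-* MBs (standard error 0.23, adjusted p = 0.000622). It fell by 0.88 from GNPs to *Ptch+/-* MBs (standard error 0.23, adjusted p = 0.0274). That smaller fall did not pass with the 2 groups alone in the model (adjusted p = 0.0663), nor without *Ptch+/-* replicate 1 or 2 or GNP replicate 1, 2 or 3 (adjusted p 0.0549 to 0.0720).

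Between the tumor genotypes *Id1* had a log2 difference of −1.02 (*NdpKO;Ptch+/-* minus *Ptch+/-* MBs, 95% interval −1.54 to −0.50) and did not pass (adjusted p = 0.0730 in limma, unadjusted p = 0.00144). The exact permutation test over the 8 MBs gave p = 0.0286 (two-sided), the smallest p that 4 against 4 allow. The highest *NdpKO;Ptch+/-* MB, replicate 3, lay at 7.50 and the lowest *Ptch+/-* MB, replicate 4, at 7.66. Without *Ptch+/-* replicate 4 the difference was −1.21 and passed (adjusted p = 0.0321). Over 20 alternative settings it ran from −1.21 to −0.79 and it passed in 4 of them (adjusted p 0.0201 to 0.266, the last with the MBs alone in the model).

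*Id1* is also abundant in endothelial cells. The mean log2 signal of 10 endothelial markers, of which *Kdr*, *Erg* and *Tie1* lay under the limit in every group, was 6.38 to 7.10 in *NdpKO;Ptch+/-* MBs, 5.84 to 6.60 in *Ptch+/-* MBs and 6.79 to 7.28 in GNPs. The mean of 8 mural cell markers (pericytes and smooth muscle) was 6.30 to 6.71, 5.59 to 6.06 and 5.81 to 6.12 in the same order. *Pdgfrb* and *Anpep* among them lay under the limit in every group. Between the tumor genotypes the endothelial list overlapped and the mural list was higher in *NdpKO;Ptch+/-* MBs, where *Id1* was lowest. Of the endothelial markers *Emcn* alone passed between them, higher in *NdpKO;Ptch+/-* MBs (log2 difference 1.95, adjusted p = 0.0321 in limma). *Cldn5* had a difference of −0.01. Against GNPs the endothelial list, like *Id1*, was lower in *Ptch+/-* MBs without overlap. The list overlapped between GNPs and *NdpKO;Ptch+/-* MBs, while *Id1* did not. The part of these cells in the *Id1* signal was not tested. The arrays measure whole samples, so fewer cells of a type and less RNA per cell cannot be told apart.

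*Id4*, which in the brain is linked to neural precursors and astrocytes, had log2 signals of 6.48, 6.41, 7.63 and 7.96 in GNPs, 4.20, 4.14, 5.53 and 4.49 in *Ptch+/-* MBs, and 5.05, 4.17, 7.08 and 4.42 in *NdpKO;Ptch+/-* MBs. In *Ptch+/-* MBs replicate 3 alone was above the background limit, and in *NdpKO;Ptch+/-* MBs replicates 1 and 3 were. *Id4* fell from 7.12 ± 0.79 (SD, n = 4 arrays) in GNPs to 4.59 ± 0.65 in *Ptch+/-* MBs (adjusted p = 0.0268 in limma), without overlap. The call was lost without *Ptch+/-* replicate 1, 2 or 4 or GNP replicate 3 or 4 (adjusted p 0.0554 to 0.0735). *NdpKO;Ptch+/-* MBs, at 5.18 ± 1.32, overlapped the GNPs through replicate 3, with an adjusted p of 0.0939 in limma and p = 0.0857 in the two-sided exact permutation test, so it did not pass. It passed in 6 of 20 alternative settings, without *NdpKO;Ptch+/-* replicate 3 (adjusted p = 0.0125, fitted log2 difference −2.57) and with median centring (0.0483), dim probes left out (0.0275), a trended robust prior (0.0454), a replicate block (0.0413) or averaged probes (0.0402). A second *Id4* probe lay under the limit in all 8 MBs and at 5.27 ± 0.74 in GNPs, so at least 1.71-fold lower in both tumor groups (adjusted p = 0.0300 for *Ptch+/-* and 0.0436 for *NdpKO;Ptch+/-* MBs). The tumor genotypes had an *Id4* log2 difference of 0.59 (95% interval −0.89 to 2.07, adjusted p = 0.804), and without *NdpKO;Ptch+/-* replicate 3 it was −0.04. These *Id4* differences are fitted values, since some MBs lay under the limit.

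The oligodendrocyte lineage list, like *Id4*, was higher in GNPs than in *Ptch+/-* MBs. The mean log2 signal of the 6 listed genes on the array was 8.30, 9.12, 9.61 and 9.43 in GNPs (replicates 1 to 4), against 6.95 to 7.98 in *Ptch+/-* MBs and 7.53 to 8.11 in *NdpKO;Ptch+/-* MBs. *Mbp*, the myelin basic protein gene, had means of 13.01 in GNPs, 8.10 in *Ptch+/-* and 9.36 in *NdpKO;Ptch+/-* MBs, while *Olig1*, a transcription factor of the lineage, ran the other way at 11.69, 13.26 and 13.28. *Olig2* lay under the limit in GNPs and *NdpKO;Ptch+/-* MBs. The list of 10 genes of astrocytes and Bergmann glia overlapped between the groups, at 8.59 to 8.90 in GNPs, 8.52 to 9.92 in *Ptch+/-* MBs and 8.65 to 9.40 in *NdpKO;Ptch+/-* MBs. The part of these cells in the *Id4* result was not tested.

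*Id2*, which binds E proteins like its relatives, had log2 signals of 10.62, 10.27, 11.11 and 11.01 in GNPs, 10.61, 10.29, 10.40 and 10.08 in *Ptch+/-* MBs and 10.26, 10.24, 10.57 and 10.74 in *NdpKO;Ptch+/-* MBs, and all 3 groups overlapped. The log2 difference from GNPs was −0.41 in *Ptch+/-* MBs (95% interval −0.86 to 0.04, adjusted p = 0.215) and −0.30 in *NdpKO;Ptch+/-* MBs (−0.75 to 0.15, adjusted p = 0.411). With its 3 probes averaged *Id2* passed in *Ptch+/-* MBs, at −0.57 (adjusted p = 0.0440). Between the tumor genotypes the difference was 0.11 (−0.34 to 0.56, adjusted p = 0.902). *Id3*, often co-regulated with *Id1*, had log2 signals of 5.06 to 6.02 in GNPs, 4.34 to 6.17 in *Ptch+/-* MBs and 4.61 to 5.39 in *NdpKO;Ptch+/-* MBs. The *Ptch+/-* MBs ranged widest, with replicate 1 under the background limit and replicate 4 the highest of all 12 arrays. None of the *Id3* differences passed. The log2 difference was −0.08 for *Ptch+/-* MBs against GNPs (−0.97 to 0.82), −0.47 for *NdpKO;Ptch+/-* MBs against GNPs (−1.37 to 0.43) and −0.40 between the tumor genotypes (−1.29 to 0.50). The first of these turned positive without *Ptch+/-* replicate 1 (0.27) or 2 (0.04) or GNP replicate 4 (0.12).

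**Figure D2:**
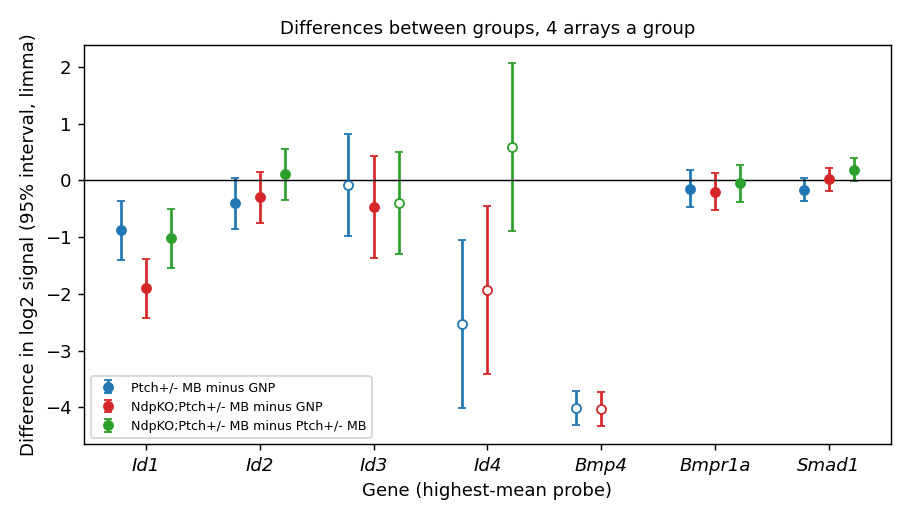
Difference in log2 signal (vertical axis) for the 7 genes above background on at least 4 arrays, in the 3 comparisons, with 95% intervals from limma. Open circles mark fitted values where at least 1 array of a group lay under the background limit. Each gene is shown by its highest-mean probe. The intervals are not adjusted for the number of probes. Those of *Id1* lie below 0 in all 3 comparisons, and those of *Bmpr1a* and *Smad1* cross it. *Id1* between the tumor genotypes did not pass, although its interval lies below 0 (adjusted p = 0.0730 in limma). The same holds for *Id4* in *NdpKO;Ptch+/-* MBs against GNPs (adjusted p = 0.0939). *Bmp4* between the tumor genotypes is left out because both lie under the limit.

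Of the ligands, *Bmp4*, which is made by several embryonic signalling centres and by meninges, had log2 signals of 7.71, 8.25, 8.41 and 8.44 in GNPs, 4.19, 4.17, 4.20 and 4.17 in *Ptch+/-* MBs and 4.14, 4.18, 4.15 and 4.21 in *NdpKO;Ptch+/-* MBs. Every GNP sample was far above the background limit and every MB under it. The *Bmp4* signal was at least 13.0-fold lower in MBs of either genotype than in GNPs (limma adjusted p = 7.72e-08 for *Ptch+/-* and 7.68e-08 for *NdpKO;Ptch+/-* MBs), and it passed in all 20 alternative settings of both comparisons. With both genotypes under the limit, no difference between them could be measured. A second *Bmp4* probe lay under the limit on all 12 arrays and gives no fold. *Bmp7*, a ligand of meninges and choroid plexus, reached 4.73 in GNP replicate 1 and lay under the limit on the other 11 arrays. *Bmp2* lay under it on all 12 arrays, so no level of either ligand can be compared.

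Markers of meningeal fibroblasts did not all go one way. Of 9 such markers 8 reached the limit on at least 1 GNP array, against 4 in each tumor group, and *Col3a1*, a fibrillar collagen, was at 5.58 ± 0.85 in GNPs and under the limit in all MBs. *Col1a1*, *Col1a2* and *Foxc1* each reached the limit on 1 GNP array, and *Aldh1a2* on none of the 12. *Pdgfra*, a growth factor receptor, had a lower mean in GNPs (11.35) than in *Ptch+/-* (12.23) and *NdpKO;Ptch+/-* MBs (11.995), and *Dcn*, decorin, was at 10.74, 10.996 and 9.26 in the same order. How often these markers were detected was not tested between groups. The mean log2 signal of the list overlapped between GNPs and *Ptch+/-* MBs but not between GNPs and *NdpKO;Ptch+/-* MBs, at 6.35 to 6.77 in GNPs, 5.97 to 6.77 in *Ptch+/-* MBs and 5.59 to 6.23 in *NdpKO;Ptch+/-* MBs. The part of meningeal cells in the *Bmp4* result was not tested. Microglia and macrophage markers went the other way, with list means over 7 genes of 5.14 to 5.60 in GNPs, 7.62 to 8.68 in *Ptch+/-* MBs and 7.57 to 8.12 in *NdpKO;Ptch+/-* MBs.

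**Figure D3:**
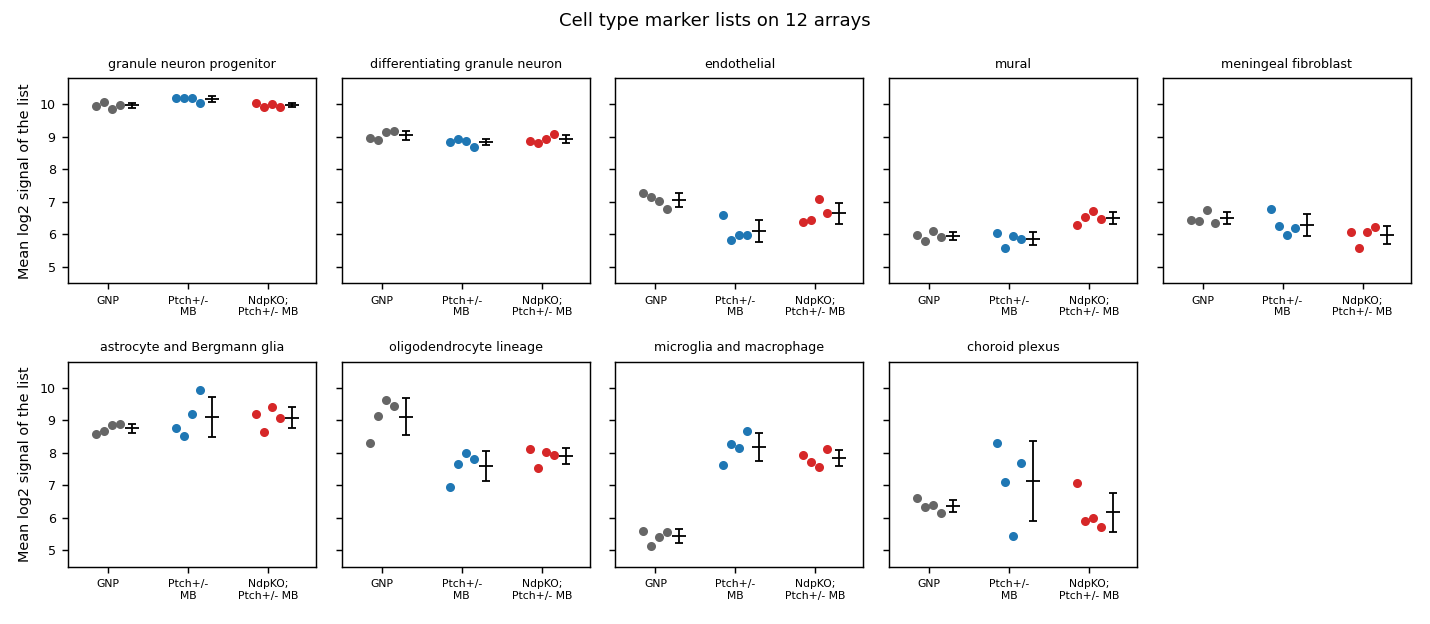
Mean log2 signal of 9 marker lists (vertical axis) in GNPs, Ptch+/- MBs and NdpKO;Ptch+/- MBs, with points for single arrays and the mean ± SD (n = 4) beside them. The oligodendrocyte list is higher in GNPs than in MBs, the microglia and macrophage list is lower, and the mural list is higher in NdpKO;Ptch+/- MBs.

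*Bmpr1a*, a type I receptor for BMP2 and BMP4, had log2 signals of 10.31 to 10.51 in GNPs, 9.94 to 10.55 in *Ptch+/-* MBs and 9.86 to 10.42 in *NdpKO;Ptch+/-* MBs. The groups overlapped and no comparison passed. The log2 difference from GNPs was −0.15 in *Ptch+/-* MBs (95% interval −0.47 to 0.18, adjusted p = 0.571) and −0.20 in *NdpKO;Ptch+/-* MBs (−0.52 to 0.12, adjusted p = 0.442), and it was −0.06 between the tumor genotypes (−0.38 to 0.27, adjusted p = 0.937). A second *Bmpr1a* probe, above the limit on all 12 arrays, did not pass either, but its intervals against GNPs lay below 0. Its difference was −0.65 in *Ptch+/-* MBs (−1.24 to −0.06, adjusted p = 0.13) and −0.71 in *NdpKO;Ptch+/-* MBs (−1.30 to −0.12, adjusted p = 0.12). *Smad1*, the Smad that BMP receptors phosphorylate, had log2 signals of 10.53 to 10.68 in GNPs, 10.29 to 10.61 in *Ptch+/-* MBs and 10.39 to 10.77 in *NdpKO;Ptch+/-* MBs. Its differences were −0.17 (−0.37 to 0.04, adjusted p = 0.268), 0.02 (−0.19 to 0.22, adjusted p = 0.946) and 0.18 (−0.02 to 0.38, adjusted p = 0.445) in the same order. These are the narrowest intervals among the 7 genes. *Smad7*, an inhibitory Smad that BMP and TGF-beta signals induce, lay between 4.12 and 4.15 on all 12 arrays, under the limit, so its level could not be compared.

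The 10 genes stand among 64 genes on the arrays from lists of BMP ligands, receptors, antagonists, Smads and their regulators, targets and E proteins. Of the 54 others, 27 lay under the limit on all 12 arrays. In *Ptch+/-* MBs against GNPs 3 of the 54 were higher and 8 lower, or 20.4%, near the 21.2% of all genes. In *NdpKO;Ptch+/-* MBs against GNPs 3 were higher and 7 lower, or 18.5%, against 15.7% of all genes. Between the tumor genotypes limma passed 0 of the 54, where 2.07% of all genes passed. Of the 54, 8 had an unadjusted p under 0.05. The share of all genes at that unadjusted level is not given here, so the 8 cannot be read as an excess. *Bmp6* and *Fst*, which passed as lower in both comparisons with GNPs, lay under the limit on all 12 arrays with differences of at most 0.03 in size, so no change in level can be read from them.

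Among receptors *Bmpr1b*, the other main type I BMP receptor, had log2 signals of 6.98, 7.25, 6.56 and 6.50 in GNPs, 4.18, 4.34, 4.24 and 5.23 in *Ptch+/-* MBs and 5.41, 5.03, 5.51 and 4.78 in *NdpKO;Ptch+/-* MBs. It fell in both tumor groups (adjusted p = 0.000379 and 0.00388 in limma), and in *Ptch+/-* MBs replicate 4 alone was above the limit. The mean of *NdpKO;Ptch+/-* MBs lay between those of the other groups, they overlapped *Ptch+/-* MBs through *Ptch+/-* replicate 4, and their difference from *Ptch+/-* MBs did not pass (adjusted p = 0.314). *Acvr1*, another type I receptor, fell by 0.48 in *Ptch+/-* MBs (adjusted p = 0.0112) and had a difference of −0.35 in *NdpKO;Ptch+/-* MBs (adjusted p = 0.0571). The second *Acvr1* difference passed in 4 of 20 alternative settings (lowest adjusted p = 0.0293). *Rgmb*, a co-receptor, rose by 0.85 in *Ptch+/-* MBs (adjusted p = 0.0130) and by 0.80 in *NdpKO;Ptch+/-* MBs (adjusted p = 0.0223). The second of these *Rgmb* calls was lost without *NdpKO;Ptch+/-* replicate 1 or 3 or GNP replicate 3 or 4 (adjusted p 0.0535 to 0.0636). It was also lost with the 2 groups alone in the model (0.0589). The type II receptor *Bmpr2* did not pass in any comparison. In all, 1 of 12 receptors and co-receptors was higher and 2 were lower in *Ptch+/-* MBs, and 1 was higher and 1 lower in *NdpKO;Ptch+/-* MBs. Of all genes 21.2% and 15.7% passed in these comparisons, so the counts are near the background share.

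*Chrd* encodes chordin, which binds BMPs outside the cell and keeps them from their receptors. It had log2 signals of 10.96, 10.95, 11.27 and 11.20 in GNPs, 10.05, 10.21, 10.21 and 9.34 in *Ptch+/-* MBs and 10.09, 10.12, 9.83 and 10.29 in *NdpKO;Ptch+/-* MBs. It fell by 1.14 in *Ptch+/-* MBs (adjusted p = 0.00299) and fell by 1.01 in *NdpKO;Ptch+/-* MBs (adjusted p = 0.00742), without overlap. *Chrd* and *Fst* were the 2 of 16 antagonists and modulators that passed in each of these comparisons. The shares of all genes that passed were 21.2% and 15.7%. The antagonist *Nog*, the ligand *Bmp8b* and the pseudoreceptor *Bambi* lay under the limit on all 12 arrays. *Bmp5*, a ligand close to *Bmp7*, lay under the limit in all GNPs and ran from 4.17 to 8.18 in *Ptch+/-* and from 5.46 to 7.66 in *NdpKO;Ptch+/-* MBs. With that spread it did not pass (adjusted p = 0.196 and 0.179), although it passed for *NdpKO;Ptch+/-* MBs with the 2 groups alone in the model (adjusted p = 0.0242).

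Inside the cell *Tob1*, a repressor of BMP Smads and of proliferation, had log2 signals of 10.41 to 10.55 in GNPs, 9.52 to 9.83 in *Ptch+/-* MBs and 9.15 to 9.54 in *NdpKO;Ptch+/-* MBs. It fell by 0.84 in *Ptch+/-* MBs (adjusted p = 0.000378) and fell by 1.19 in *NdpKO;Ptch+/-* MBs (adjusted p = 6.25e-05). *Tob2*, its relative, fell by 0.89 in *NdpKO;Ptch+/-* MBs (adjusted p = 0.00615, or 0.0907 with its probes averaged) and had a difference of −0.44 in *Ptch+/-* MBs (adjusted p = 0.0989). The latter passed in 3 of 20 alternative settings. *Zeb2*, a Smad-binding repressor, rose by 1.03 in *Ptch+/-* MBs (adjusted p = 0.000394) and by 0.97 in *NdpKO;Ptch+/-* MBs (adjusted p = 0.000743). *Smad5*, a partner of *Smad1*, rose by 0.45 in *Ptch+/-* MBs (adjusted p = 0.0133) and by 0.36 in *NdpKO;Ptch+/-* MBs (adjusted p = 0.0436). The *Smad5* call in *NdpKO;Ptch+/-* MBs was lost on leaving out any array but *NdpKO;Ptch+/-* replicate 4 or GNP replicate 3 (adjusted p 0.0567 to 0.109). In all it passed in 7 of 20 alternative settings. *Zfp423*, a zinc finger cofactor of BMP Smads, fell by 1.65 in *Ptch+/-* MBs (adjusted p = 0.0111) and had a difference of −1.03 in *NdpKO;Ptch+/-* MBs (adjusted p = 0.0977). The second difference passed in 5 of 20 alternative settings, among them without *NdpKO;Ptch+/-* replicate 4 (adjusted p = 0.0462) and with dim probes left out (0.0313). Of 12 such genes 2 rose and 2 fell in each comparison with GNPs, where 21.2% and 15.7% of all genes passed. Of these 12 genes 8 reached the limit on at least 4 arrays. Among all genes that did so, 38.4% and 28.9% passed.

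**Figure D4:**
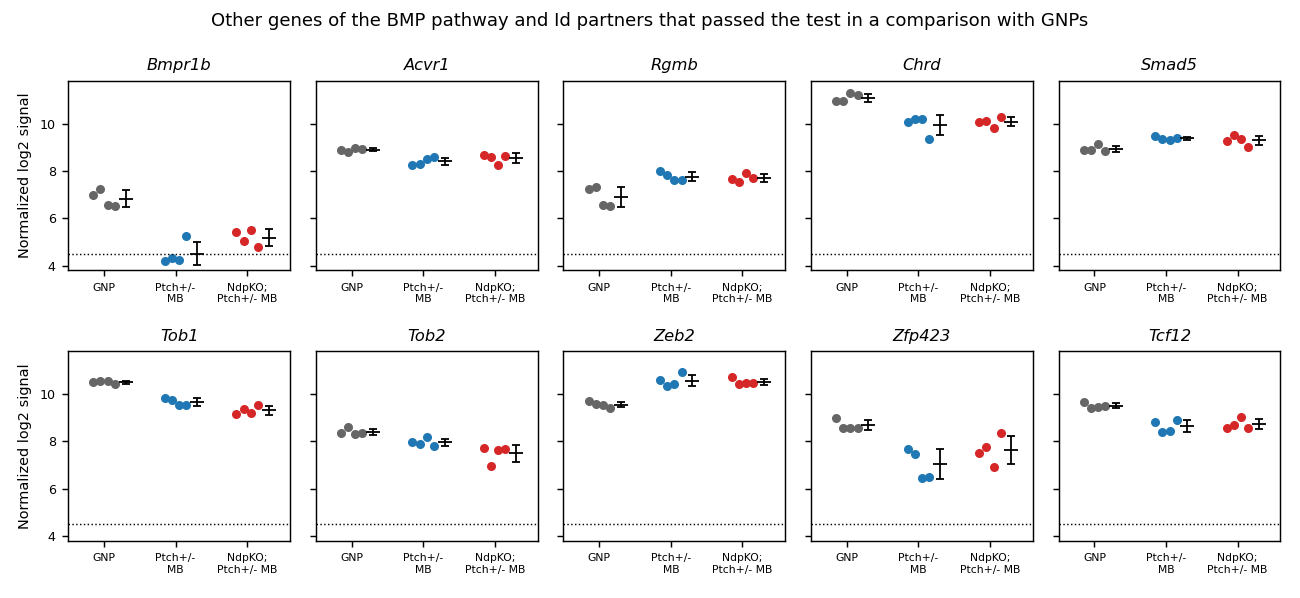
Normalized log2 signal (vertical axis) of 10 other genes of the BMP pathway that passed against GNPs in at least 1 comparison and were above background on some array, with points for single arrays, the mean ± SD (n = 4) beside them and the 4.5 background limit dotted. *Bmpr1b*, *Chrd*, *Tob1* and *Tcf12* lie lower and *Zeb2* higher in MBs of both genotypes than in GNPs.

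Besides *Id1* and *Id4*, none of the 11 listed target genes passed in the 3 comparisons, where 21.2%, 15.7% and 2.07% of all genes passed. *Hey1* had a log2 difference of −0.17 in *Ptch+/-* MBs (adjusted p = 0.368) and −0.23 in *NdpKO;Ptch+/-* MBs (adjusted p = 0.263). *Msx1*, a homeobox target, was at 5.12 ± 0.70 in GNPs, with 3 arrays above the limit, and under the limit in all *NdpKO;Ptch+/-* MBs (adjusted p = 0.0958). This difference passed in 4 of 20 alternative settings, among them without GNP replicate 4 (adjusted p = 0.0207) and with dim probes left out (0.0314). Among the E proteins that Id proteins bind, *Tcf12* fell by 0.88 in *Ptch+/-* MBs (adjusted p = 0.00189) and fell by 0.79 in *NdpKO;Ptch+/-* MBs (adjusted p = 0.00461). With its probes averaged neither passed (adjusted p = 0.0660 and 0.193). *Tcf4* had differences of 0.27 (adjusted p = 0.147, or 0.0184 without *Ptch+/-* replicate 4) and 0.11 (adjusted p = 0.632).

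The genes with profiles most like *Id1*, by the root mean square difference between centred log2 profiles over 12 arrays among 8921 other genes above background, were *B3gat1* (0.28), *Rybp* (0.32) and *Per2* (0.35). *B3gat1*, an enzyme of HNK-1 carbohydrate synthesis, had group means of 11.49 in GNPs, 10.51 in *Ptch+/-* MBs and 9.31 in *NdpKO;Ptch+/-* MBs. Nearest to *Id4* were *Prkg1* (0.63), *Tnc* (0.67) and *Stk32a* (0.70), and *Tnc*, tenascin-C, had means of 8.50, 6.07 and 5.80 in that order. Nearest to *Bmp4* were *Rnf138rt1* (0.16), *Eomes* (0.17) and *C2cd4a* (0.19). *Eomes*, a T-box factor known from unipolar brush cells of the cerebellum, was at 7.93 ± 0.42 in GNPs and under the limit in all MBs.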

How the data were processed

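Total RNA of 12 samples was hybridised to 1 array each. The authors ran limma's neqc on BeadStudio exports, which subtracts background estimated from negative controls, adds an offset and equalises quantiles between arrays, and deposited the resulting log2 signals. Differences in general level between arrays are therefore removed, and low signals are compressed towards a floor. Everything else was computed in R 4.3.3 with limma 3.58.1. Of 45281 probes, 34885 have 1 gene symbol, 18 several and 10378 none. The model (lmFit, eBayes) had 1 mean per group and no covariates. Where all arrays of the dimmer group lay under 4.5, the fold is a bound from that limit, written "at least". Exact permutation tests used all 70 ways to divide 8 arrays.

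The genes described and the lists were chosen with earlier results of these data known. Other pathway genes were named if they passed between the tumor genotypes or had 1 of the 2 smallest p of a list against GNPs, and the rest were named after their values were seen, as were marker genes. Listed genes that no probe was annotated to, *Gdf7*, *Smad4* and *Smurf2* among them, were not analysed here. Replicate numbers did not pair the samples, since the correlation of same-numbered deviations ran from −0.186 to 0.117. Alternatives were other scalings, leaving out dim probes, a trended robust prior, array weights, 2 groups alone, a replicate block, averaged probes, a threshold of 0.01 and each array left out. The fit was tested on simulated data. The RefSeq windows were checked for orientation by the TATAAA motif.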

Additional observations from a re-analysis of the deposited data

Results flagged for a closer look

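In 51 groups of 4 arrays tested for the genes above, 3 samples stood apart from their group by Dixon's criterion, and chance alone would mark about 1 group in 20. *Bmpr1b* in *Ptch+/-* replicate 4 had a log2 signal of 5.23, with the other *Ptch+/-* MBs at 4.18 to 4.34. *Tcf4* had a log2 signal of 14.14 in *Ptch+/-* replicate 4, with the others at 14.55 to 14.60, and of 14.33 in GNP replicate 4, with the others at 14.14 to 14.17.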

How the results depend on the processing

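Of the 10 genes, *Bmp4* in both comparisons with GNPs and *Id1* in *NdpKO;Ptch+/-* MBs against GNPs kept direction and call in all 20 settings. In *Ptch+/-* MBs against GNPs, 1 to 3 genes passed with 1 array left out, with *Bmp4* alone without *Ptch+/-* replicate 1 or 2 or GNP replicate 3, and 1 passed at a threshold of 0.01 (4187 probes against 7814). In *NdpKO;Ptch+/-* MBs against GNPs, 4 passed in place of 2 with median centring (14339 probes against 5614, 21.1% of them higher against 46.7%) and with the trended robust prior, and 2893 probes passed at 0.01. With median centring the median log2 difference of all probes was −0.012 in that comparison, against 0.0003 in the main fit. It was −0.002 for *Ptch+/-* MBs against GNPs and −0.009 between the tumor genotypes. Between the tumor genotypes, *Id1* alone passed, so 1 gene in place of 0, with median centring (1606 probes against 624, 22.8% higher against 38.5%), with dim probes left out (1225) and with the trended robust prior (1051). Far fewer probes passed with the 2 tumor groups alone (64), a replicate block (223) or a threshold of 0.01 (133). With 1 array left out, 0 to 1 gene and 358 to 623 probes passed. Counts over 1.5 times lower came without *NdpKO;Ptch+/-* replicate 2 (358), GNP replicates 1 (374), 2 (389) and 4 (403) and *Ptch+/-* replicate 3 (406). The replicate block, which shares a number and no known origin, gave 3 genes against GNPs for each genotype and 0 between the tumor genotypes, and 2 of 12 arrays correlated best with their own number.

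Among differences that never passed, signs turned with 1 array left out. *Id3* in *Ptch+/-* MBs against GNPs ran from −0.34 to 0.27, *Smad1* in *NdpKO;Ptch+/-* MBs against GNPs from −0.0345 to 0.0934, and between the tumor genotypes *Id4* from −0.0447 to 0.927 and *Bmpr1a* from −0.157 to 0.0512. The cause was not tested for any of these changes.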
